A study of Caenorhabditis elegans with 2 samples.

Results

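The tRNA genes of the 5 autosomes were examined for binding of CEH-44 in Caenorhabditis elegans. Members were all nuclear genes of biotype tRNA outside the X chromosome in the Ensembl WBcel235 annotation, 336 of 612 nuclear tRNA genes, and the other 276 lay on X. By chromosome there were 66 on I, 57 on II, 64 on III, 71 on IV and 78 on V. A member was called bound when a peak summit of the larger series list lay within 250 bp of the gene. The assay was chromatin immunoprecipitation and sequencing (ChIP-seq) of 1 group, fourth-stage (L4) larvae of strain RW12327 aged 49 hours, in 2 biological replicates. This strain carries TY1, EGFP and 3xFLAG tags inserted by CRISPR at the endogenous ceh-44 gene, and the labels describe precipitation through the GFP tag, although their antibody field reads ceh-44. The animals had been synchronised as starved first-stage larvae after bleaching. Whole larvae were used, so strong binding in few cells and weak binding in many cannot be told apart. The read depth is unknown, and a control library and an untagged strain were not analysed here.

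A tRNA gene is transcribed by RNA polymerase III from a promoter that lies inside the gene. Its parts are the A box near the start of the tRNA and the B box in the T arm, which are bound by the factor TFIIIC. TFIIIC places TFIIIB just upstream of the start, and transcription ends at a run of T past the gene. Genes that read the same codons often exist in many copies with identical sequence, spread over the genome, between genes or inside the introns of protein-coding genes. CEH-44 is a homeodomain protein of the CUT family, related to the mammalian CUX proteins, and is known for its expression throughout the nervous system.

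The sequences that follow were read from the RefSeq WBcel235 genome, the build of the deposited ce11 coordinates, and are given 5′ to 3′ on the gene's strand. The first set shows that copies of 1 identical gene can differ in being bound. Y39A1A.t1 (chrIII:10624742-10624863, minus strand, bound) and W02G9.t1 (chrV:2664667-2664788, minus strand, unbound) are tRNA-Thr genes with anticodon AGT, each inside an intron. Capitals mark the gene, and lower case the 50 bp upstream, of which 36 positions differ while none of the gene's 72 do.
Y39A1A.t1: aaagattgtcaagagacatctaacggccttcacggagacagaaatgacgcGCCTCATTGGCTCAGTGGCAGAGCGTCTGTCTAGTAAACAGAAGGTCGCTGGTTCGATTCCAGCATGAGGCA
W02G9.t1: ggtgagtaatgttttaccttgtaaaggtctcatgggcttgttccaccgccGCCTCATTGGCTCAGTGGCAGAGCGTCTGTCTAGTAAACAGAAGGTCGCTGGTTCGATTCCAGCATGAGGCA
The second set shows bound and unbound genes that are nearly, but not fully, identical, with the letters GTTCNANNC, the core of the B box, in capitals. F44A2.t1 (chrV:9318202-9318273, plus strand) and K06A4.t1 (chrV:9503562-9503633, plus strand) are bound tRNA-Ala genes with anticodon CGC, and B0491.t1 (chrII:11334508-11334579, plus strand) is an unbound tRNA-Ala gene with anticodon TGC.
F44A2.t1: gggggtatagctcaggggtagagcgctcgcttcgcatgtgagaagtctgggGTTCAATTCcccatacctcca
K06A4.t1: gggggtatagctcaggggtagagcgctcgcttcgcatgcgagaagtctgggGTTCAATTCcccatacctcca
B0491.t1: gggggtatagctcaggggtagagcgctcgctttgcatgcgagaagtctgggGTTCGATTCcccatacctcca
K02E11.t1 (chrV:14231364-14231435, plus strand) is a bound tRNA-Gln gene with anticodon CTG, and F08G5.t2 (chrIV:12417249-12417320, minus strand) an unbound one with anticodon TTG.
K02E11.t1: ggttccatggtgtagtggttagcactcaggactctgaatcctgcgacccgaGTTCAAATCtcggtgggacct
F08G5.t2: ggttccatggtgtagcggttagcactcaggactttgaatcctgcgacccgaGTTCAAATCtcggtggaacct
F57F5.t1 (chrV:12002176-12002260, plus strand, bound) and K11C4.t1 (chrV:6917466-6917550, plus strand, unbound) are tRNA-Ile genes of 85 bp, longer than most.
F57F5.t1: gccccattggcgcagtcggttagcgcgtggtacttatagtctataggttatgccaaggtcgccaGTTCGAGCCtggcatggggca
K11C4.t1: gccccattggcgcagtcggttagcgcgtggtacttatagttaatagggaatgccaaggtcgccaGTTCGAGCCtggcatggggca
The bound tRNA-His gene W09G10.t1 (chrII:3521487-3521558, minus strand) had the highest signal of an isotype that was seldom bound.
W09G10.t1: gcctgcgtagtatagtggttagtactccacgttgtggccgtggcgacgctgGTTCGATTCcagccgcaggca
Of 72 positions, 1 differed between F44A2.t1 and K06A4.t1, 3 between F44A2.t1 and B0491.t1, and 3 between K02E11.t1 and F08G5.t2. Between F57F5.t1 and K11C4.t1, 4 of 85 positions differed, all from base 41 to base 49 of the gene and so before the B box core. Y39A1A.t1, W02G9.t1, K06A4.t1, B0491.t1, F57F5.t1 and K11C4.t1 were picked with their values known.

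In both replicates the bound gene of each pair had the higher candidate signal, by margins that varied. Genes were called bound partly on these values, so this order is a description and not a separate result. The signal of Y39A1A.t1 was 33.7 in replicate 1 and 65.7 in replicate 2, and that of W02G9.t1 28.5 and 23.0. The gap lay mainly in replicate 2, and neither copy was in a replicate's own list. F44A2.t1 had signals of 62.0 and 66.4, K06A4.t1 of 43.0 and 27.5, and B0491.t1 of 28.5 and 26.1, so that in replicate 2 the bound K06A4.t1 lay only just above the unbound B0491.t1. F57F5.t1 stood above K11C4.t1 in both replicates, with 56.3 and 60.8 against 20.3 and 16.6. K02E11.t1 had 41.4 and 48.3, and F08G5.t2 had 37.4 and 36.1. F08G5.t2, the copy called unbound, had a summit in the conservative list. Signal is the authors' value for a peak, on a scale that is not stated. The replicates' ranked lists were not normalised to each other, so values set side by side between replicates describe those lists and not amounts bound.

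Of the 336 autosomal tRNA genes, 160 were bound (47.6%, exact 95% interval 42.2 to 53.1%). Over all 40868 autosomal genes of any kind, tRNA genes included, the same rule called 2.87%. Among autosomal noncoding genes of at most 200 bp other than tRNA genes it called 1.64%, and 1.17% once snoRNA and snRNA genes were left out too. Median gene lengths were 72 bp for tRNA genes, 163 bp over all autosomal genes and 21 bp for the other noncoding genes of at most 200 bp. Each median was below the 250 bp searched on each side. Longer genes among all autosomal genes offer more room for a summit, and the shares were not adjusted for length. In the list that the authors named conservative, 155 tRNA genes were bound (46.1%, 40.7 to 51.6%) against 2.79% of all autosomal genes. Of the 819 autosomal summits of the larger list, 147 (17.9%) lay within 250 bp of a tRNA gene. Intervals cover counting error only.

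Each replicate alone placed peaks at tRNA genes, but at fewer of them. Replicate 1's own list of 387 peaks reached 55 of the members (16.4%, 12.6 to 20.8%) against 1.21% of all autosomal genes. Replicate 2's list of 525 peaks reached 100 (29.8%, 24.9 to 35.0%) against 1.63%. Of the 55 genes in replicate 1's list, 67.3% were also in replicate 2's, and of the 100 in replicate 2's list, 37.0% were in replicate 1's. Both lists thus held 37 genes, all bound in the series list. Of the 160 bound genes, 17 were in replicate 1's list alone, 61 in replicate 2's alone and 45 in neither, so that 115 had a peak in at least 1 replicate's own list. The conservative list held 143 of the 160.

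Before thresholds, nearly all bound genes had a candidate peak in each replicate. The series list was made from both replicates, so this was largely fixed in advance. The ranked lists held 63930 candidates in replicate 1 and 68342 in replicate 2, and the share of other genes near one was not counted. Among bound genes the candidate signal ran from 7.18 to 106 with a median of 35.6 in replicate 1 (157 genes), and from 24.2 to 191 with a median of 48.8 in replicate 2 (159 genes). Unbound genes had 3.85 to 41.5 with a median of 20.3 in replicate 1 (129 genes), and 8.52 to 49.7 with a median of 24.8 in replicate 2 (134 genes). The sets overlapped in each replicate: 52 bound genes exceeded every unbound gene in replicate 1, and 71 did so in replicate 2. Bound genes were called partly on these values, so the gap between the sets is a description. Across the 141 distinct peaks at tRNA genes with a candidate in both replicates, signals were weakly ordered alike (Spearman's rho 0.17), against rho 0.43 over 664 other autosomal peaks. The median ratio of replicate 2 to replicate 1 was 1.40 at tRNA genes (quartiles 1.03 and 1.78) and 1.21 at the other peaks (0.930 and 1.58). Replicate 2 had the higher value at 110 of the 141. At tRNA genes the strongest candidate within 250 bp of the gene was taken, and at the other peaks that within 250 bp of the summit. The windows thus differed in length, and all of these peaks had passed the series threshold. For these reasons the correlations and ratios of the 2 sets are not strictly comparable. Peaks share their libraries, so neither correlation has a p.

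**Figure D1:**
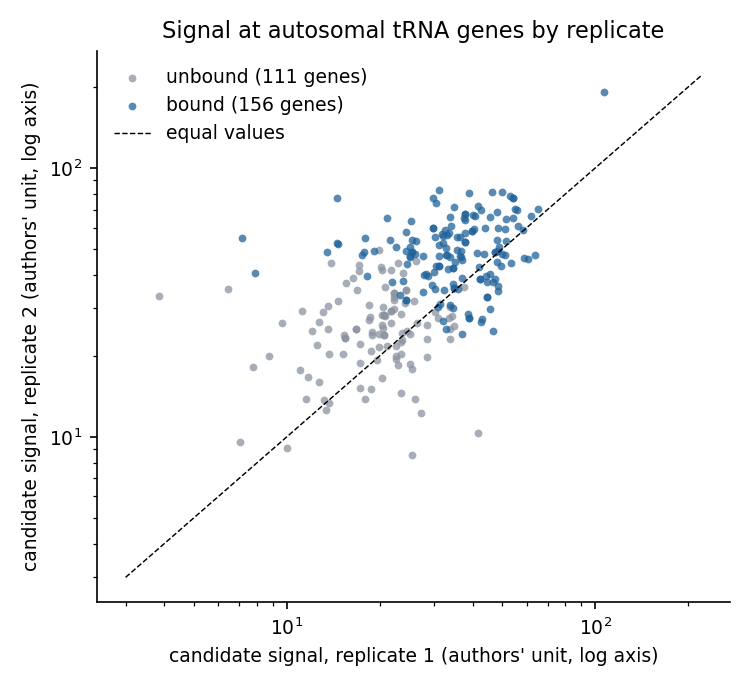
Candidate signal (the authors' unit, log axes) in replicate 1 and replicate 2 at autosomal tRNA genes with a candidate in both, 156 bound and 111 unbound, 1 point a gene. Most bound genes lie above the dashed line of equal values, the unbound genes lie lower in both replicates with overlap, and 1 gene, F10C1.t1, stands apart at 106 and 191.

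Summits lay on the tRNA genes themselves, in their first part. The 160 bound genes had 145 distinct peaks, 15 of which lay within 250 bp of a pair of tRNA genes, and 2 genes had 2 summits each. The summit fell inside the gene for 108 bound genes, upstream of it for 42 and downstream for 10. Measured at the nearest gene, the median summit was 17 bp past the gene's first base (quartiles 3 and 37 bp), and summits ran from 43 bp before to 118 bp after that base. The largest distance to a bound gene was 159 bp. All 14 bound genes over 50 bp from their summit shared the peak with a neighbouring tRNA gene. Another 5 unbound genes had a summit beyond 250 bp but within 500 bp. The B box core began at a median of base 53 of the gene, and the summit lay a median of 37 bp before it (139 peaks with the letters). Peaks were 175 to 256 bp wide and so wider than the genes, which were 68 to 122 bp long. The summit was recorded 128 bp from the peak's start in 144 of the 145, at or near its middle, which limits how finely A box, B box and flank can be told apart.

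**Figure D2:**
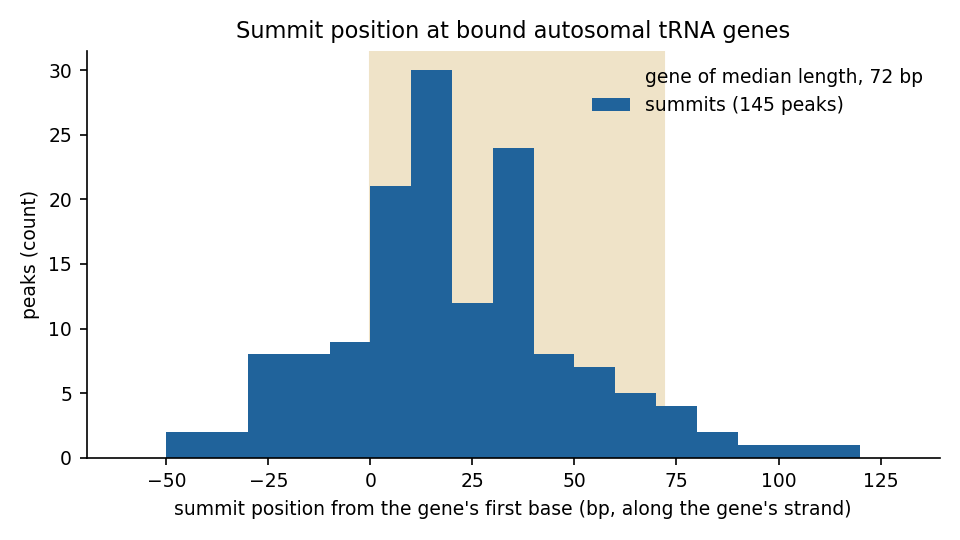
Position of 145 summits from the first base of the nearest bound tRNA gene, in bp along the gene's strand, in bins of 10 bp, with a gene of the median length of 72 bp shaded. The summits gather inside the gene between its start and its middle, around the median of 17 bp.

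Peaks at tRNA genes were alike in height, with 1 exception. Signal in the larger series list ran from 50.4 to 302, with a median of 84.0 (quartiles 71.0 and 101), and 41 bound genes exceeded 100. The highest was F10C1.t1, a tRNA-Gly gene (chrII:5782212-5782282) with a sequence of its own, which had the third highest of all 1027 peaks, with 302 in the series, 106 in replicate 1 and 191 in replicate 2. Its peak was 175 bp wide, the narrowest at any bound tRNA gene. The next, at 139 (54.1 in replicate 1, 77.2 in replicate 2), served both T23F1.t1, a tRNA-Lys gene, and the converging tRNA-Pro gene T23F1.t2, and lay 1 bp past the end of the former.

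The other genes among the 10 with the highest signal had 125 to 136 in the series list. T21B4.t1, a tRNA-Ile gene in an intron of the collagen gene col-85, had 65.0 in replicate 1 and 70.3 in replicate 2. B0350.t1 (tRNA-Lys, 52.9 and 78.6) and K04C2.t3 (tRNA-Lys, 46.1 and 81.2, in the BRCA1 partner gene brd-1) were higher in replicate 2, as was ZK507.t1 (tRNA-Asn, 49.8 and 81.3). K02D7.t1 (tRNA-Asp, 54.9 and 70.3) touched an exon of grl-26, and F44A2.t1 (tRNA-Ala) is shown above. F53F8.t1 (tRNA-Cys) had 55.8 and 69.4. C43G2.t1, a tRNA-Leu gene with 130 in the series and 90.4 in replicate 2, had no candidate in replicate 1 and was absent from the conservative list. All of the 10 but C43G2.t1 were in both replicates' own lists.

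At the lower end, the 3 bound genes with the lowest signal were C04F2.t1 (tRNA-Arg, 50.4), C38C6.t1 (tRNA-Leu, 53.9) and Y97E10C.t1 (tRNA-Thr, 54.6). C04F2.t1 had 7.89 in replicate 1 and 40.6 in replicate 2, and C38C6.t1 had 17.6 and 47.3, so both rested mainly on replicate 2. Y97E10C.t1 had 29.5 and 36.5. The 3 unbound genes with the highest candidate signal were Y105C5B.t1 (tRNA-Asp, 75.7), F08G5.t2 (70.9) and ZC132.t1 (tRNA-Gly, 66.3), all above the lowest bound genes. The thresholds rest on the irreproducible discovery rate (IDR), which measures how poorly a peak's rank repeats between inputs, and not on signal alone. The lowest −log10 IDR at a bound gene was 2.05 and the highest at an unbound gene 1.97, at ZC132.t1.

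Genes of 20 of the isotypes, the classes of tRNA by amino acid carried, were bound, and only the single gene for selenocysteine tRNA and 2 genes of undetermined isotype had none. Among the isotypes with 20 or more autosomal genes the share ran from 33.3% to 60.7%: tRNA-Gly had 17 of 35 bound (48.6%), tRNA-Lys 17 of 28, tRNA-Leu 10 of 22, tRNA-Pro 12 of 22, tRNA-Ser 10 of 21, tRNA-Ala 7 of 21 and tRNA-Thr 10 of 20. The highest share was that of tRNA-Cys, with 5 of 6 (83.3%, exact interval 35.9 to 99.6%). The lowest were tRNA-His and tRNA-Tyr, with 2 of 11 each (18.2%, 2.28 to 51.8%), then tRNA-Asn with 3 of 14 (21.4%, 4.66 to 50.8%). The intervals of the highest and lowest isotypes overlap, and no isotype was tested against another.

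**Figure D3:**
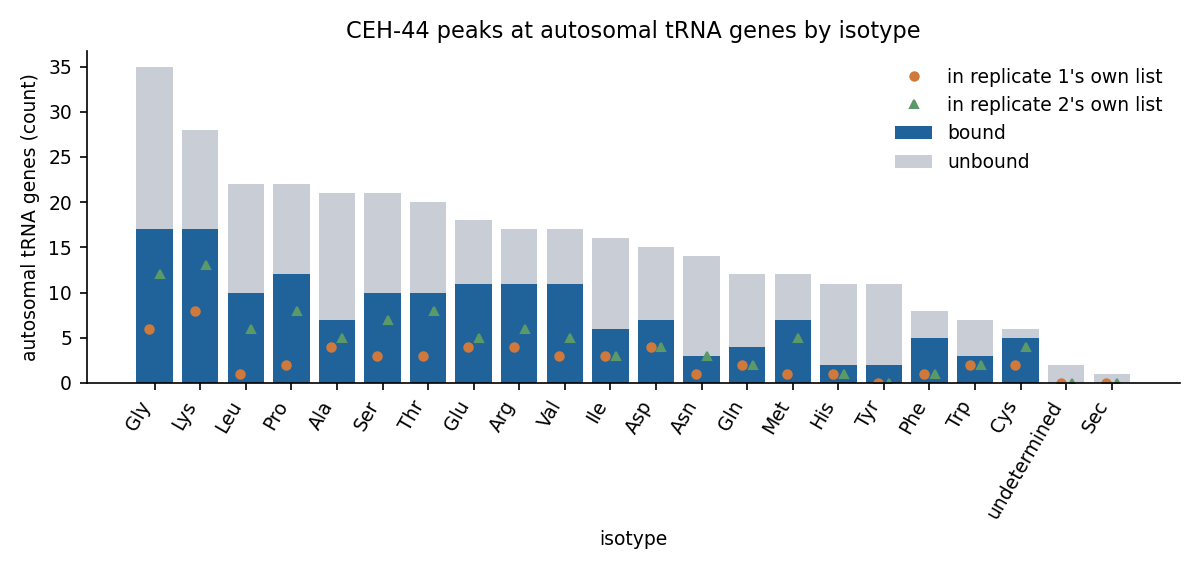
Bound (blue) and unbound (grey) autosomal tRNA genes by isotype, ordered by gene number, with the number in replicate 1's own list (circles) and replicate 2's (triangles). Bound genes occur in 20 isotypes, replicate 2's list exceeds replicate 1's in most, and tRNA-Tyr has no gene in either replicate's list.

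The replicates' own lists gave a similar but thinner picture. Replicate 1's list held no tRNA-Tyr gene, 1 each of the tRNA-Asn, tRNA-His, tRNA-Leu, tRNA-Met and tRNA-Phe genes, and 8 tRNA-Lys genes. Replicate 2's list held 13 tRNA-Lys and 12 tRNA-Gly genes, and again no tRNA-Tyr gene. Across 20 isotypes the shares in the 2 lists were moderately ordered alike (rho 0.40). The share bound bore little relation to the number of autosomal genes of an isotype (rho 0.12) or to the share bound among X-linked genes of the same isotype (rho 0.053).

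The highest gene of each remaining isotype gives the range over isotypes. F56F3.t1 (tRNA-Arg) reached 119, T15B12.t1 (tRNA-Met) 116, Y69A2AR.t2 (tRNA-Glu, touching an exon of the spindle checkpoint gene mdf-2) 114 and F02H6.t1 (tRNA-Pro, nearest to its own summit) 113. K11H3.t2 (tRNA-Ser, 107), W09G10.t1 (tRNA-His, 106), F22G12.t1 (tRNA-Val, 105) and F52C9.t1 (tRNA-Thr, 101) followed. The tRNA-Trp gene sup-5, known for its amber suppressor alleles, reached 95.7, with 32.4 in replicate 1 and 58.6 in replicate 2. K02E11.t1 (tRNA-Gln, 95.5) and ZC412.t1 (tRNA-Phe, 90.7) were lower. The lowest leader was C47E8.t1, a tRNA-Tyr gene with 71.7 in the series, 30.5 in replicate 1 and 43.2 in replicate 2.

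Most groups of identical tRNA genes held both bound and unbound copies. There were 24 groups of at least 4 autosomal tRNA genes with the same sequence, 193 genes in all, and 23 of the groups held bound and unbound copies. Over all genes that shared their sequence 52.0% were bound, a share at which groups of 4 or more would mostly be mixed. The count of mixed groups is thus a description and not a result about the copies. The largest group, tRNA-Gly with anticodon TCC, had 12 of 18 copies bound, and its bound copies ran from 72.8 to 108 in signal. Some of these copies shared a peak with a neighbouring copy and so were not separate calls. They were C12C8.t3 with C12C8.t4, F49D11.t1 with F49D11.t2, and K04C2.t1 with K04C2.t2, among others not checked here. For tRNA-Lys, 10 of 15 copies with anticodon CTT and 6 of 9 with TTT were bound. The tRNA-Asp genes (GTC) had 5 of 11 and the tRNA-Pro genes (TGG) 6 of 11. At the low end were tRNA-Asn (GTT) with 3 of 13, tRNA-Leu (AAG) with 2 of 7 and tRNA-Gln (TTG) with 1 of 6. Of the 5 autosomal tRNA-Ala copies with anticodon TGC none was bound in the series list, though 1, Y38E10A.t1, was in replicate 1's own list. Y38E10A.t1 was also in the conservative list, with a candidate signal of 65.3 in the series file. No autosomal tRNA gene was identical to another over the gene and 50 bp on each side, so the copies differ in flanking sequence. How reads that map to several copies were treated is not given in the sources used here.

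**Figure D4:**
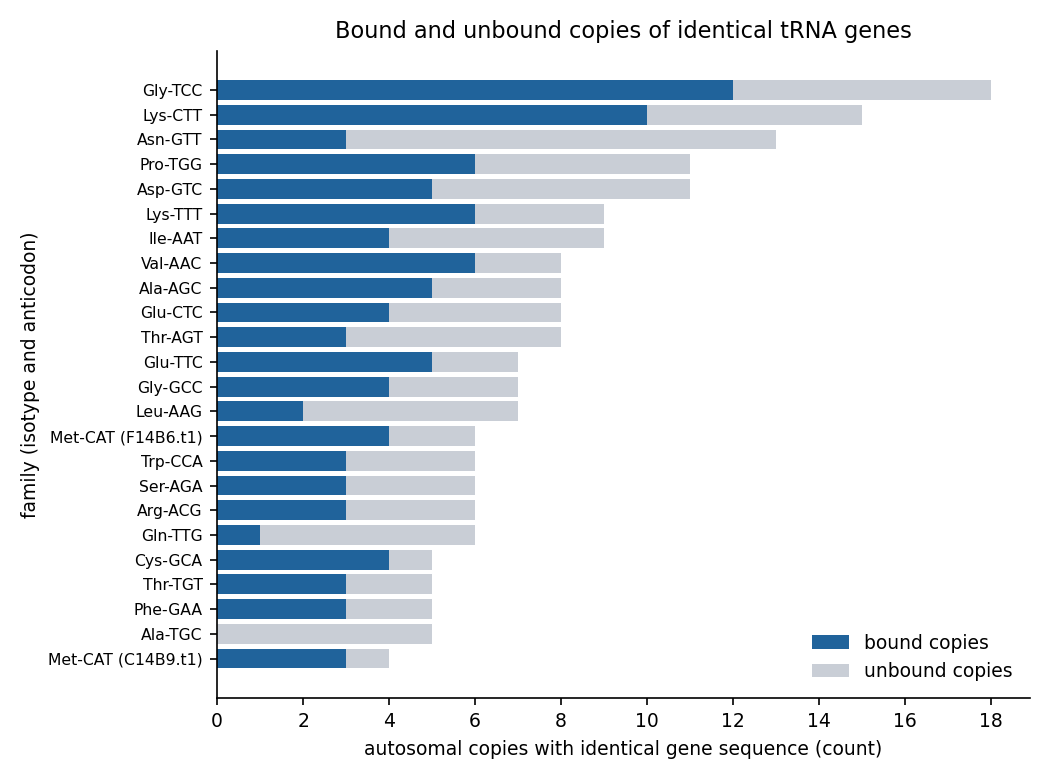
Bound (blue) and unbound (grey) autosomal copies in the 24 groups of at least 4 tRNA genes with identical gene sequence, named by isotype and anticodon. All groups but tRNA-Ala (TGC) hold both kinds.

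Genes that shared their sequence with another nuclear tRNA gene were bound more often than genes with a sequence of their own. Of the 250 sharing genes 130 were bound (52.0%, 45.6 to 58.3%), and of the 86 others 30 (34.9%, 24.9 to 45.9%). The odds ratio was 2.02, with a 95% interval from 1.18 to 3.49. Fisher's exact test gave p = 0.00836, or 0.0335 adjusted over the 4 comparisons made. The test takes genes as independent, but 242 autosomal genes fell into 43 groups of identical copies. In addition, 15 peaks were each shared by 2 genes. Calls at such genes may depend on each other, so p may be too small. The order was the same in replicate 1's list (18.4% against 10.5%), replicate 2's (32.8% against 20.9%) and the conservative list (50.8% against 32.6%). In 6 alternatives the odds ratio kept its direction but the adjusted p passed 0.05, among them a distance of 100 bp (odds ratio 1.90, Fisher's exact adjusted p = 0.0670) and genes with the B box core letters alone (1.82, 0.108, tried once the values were known). The share did not rise steadily with copy number: 18 of 42 genes with 2 to 4 copies were bound, 23 of 45 with 5 to 9, 31 of 49 with 10 to 14, 21 of 51 with 15 to 19 and 37 of 63 with 20 to 29. Where bound, both kinds had alike signals, with medians of 84.0 (130 genes) and 83.3 (30 genes). Only genes whose peak had passed the same threshold enter these medians, so the likeness is a description and not a separate result.

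Place in the genome made no difference that passed the test. In introns of protein-coding genes 89 of 188 were bound (47.3%), and between genes 67 of 139 (48.2%), an odds ratio of 0.966 with a 95% interval from 0.608 to 1.53 (p = 0.911 by Fisher's exact test, 0.911 adjusted). Of the 9 genes that touched an exon 4 were bound. Counting hosts by intron or exon alike, 51 of 118 genes on the host's strand were bound and 42 of 78 on the opposite strand. On chromosome arms, the outer 25% of the sequence at each end, 76 of 166 were bound (45.8%), and in the centres 84 of 170 (49.4%), an odds ratio of 0.865, from 0.551 to 1.36 (p = 0.514 by Fisher's exact test, 0.686 adjusted). On the X chromosome 144 of 276 tRNA genes were bound (52.2%), and the odds ratio of autosomes against X was 0.834, from 0.598 to 1.16 (p = 0.291 by Fisher's exact test, 0.582 adjusted). These intervals all include 1, and a modest difference in either direction was not detectable with these counts.

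By chromosome the bound share ran from 39.7% on V (31 of 78) to 51.5% on I (34 of 66), with 27 of 57 on II, 32 of 64 on III and 36 of 71 on IV. The arms of V stood lowest, with 7 of 32 bound (21.9%, 9.28 to 40.0%) against 24 of 46 in its centre (52.2%, 36.9 to 67.1%). They held 2 genes of replicate 1's list and 4 of replicate 2's. On the other 4 chromosomes the arms ranged from 48.0% (24 of 50, IV) to 58.6% (17 of 29, I). This split by chromosome was looked at after the values were seen and was not tested.

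**Figure D5:**
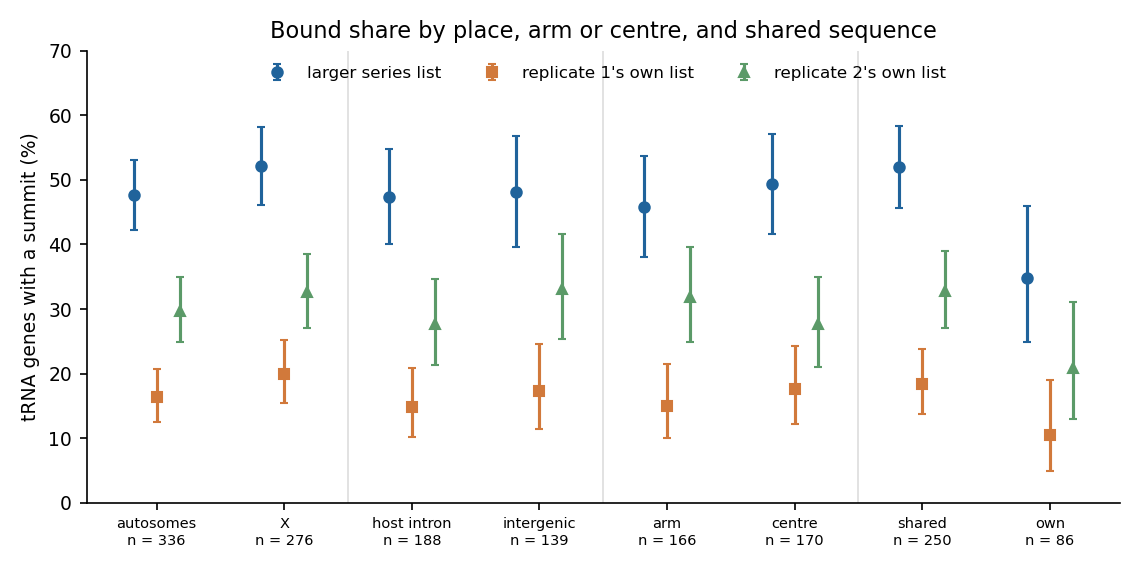
Share of tRNA genes (%) with a summit within 250 bp in the larger series list (circles), replicate 1's own list (squares) and replicate 2's (triangles), with exact 95% intervals, for autosomes and X, host introns and intergenic places, arms and centres, and shared or own sequence. The intervals overlap within each pair of classes, and the widest gap is between shared and own sequence, at 52.0% against 34.9% in the series list.

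Most unbound genes had a weaker candidate peak. Of the 176 unbound genes, 147 (83.5%) had a candidate of the larger series file within 250 bp, against 32.7% of the other short noncoding autosomal genes without snoRNA and snRNA genes. Their median candidate signal was 40.6 (quartiles 31.4 and 50.1, range 5.78 to 75.7), and their median rank was 4732. The median over all 115557 ranked candidates was 18.6. For each gene the strongest candidate within 250 bp was taken, so the 2 medians are not of like values. For 80 of the 147 the candidate summit lay inside the gene. In 36 the signal exceeded that of the lowest bound gene, and 35 had a −log10 IDR of at least 1.3. A summit of replicate 1's own list lay at 1 unbound gene, one of replicate 2's at 2, and one of the conservative list at 12.

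The 29 members without a candidate in the series file were spread over 14 isotypes, with 1 more of undetermined isotype. Of these, 13 had a candidate in a replicate's own ranked file, 4 of them in both, and 16 had none in any of the 3 files. Among the 29, 13 had a sequence of their own, against 86 of all 336 members, and 10 lay in repeated sequence, against 38 of 336, where over 25% of the 30-base words within 200 bp of the gene occur again in the genome. They included all 3 tRNA-Gly genes with anticodon CCC, T22A3.t2, T22A3.t3 and T22A3.t4, which lie in introns of the microRNA processing gene pash-1 with 62.3 to 78.0% of such words. The median share of such words was 12.2% in the 29 and 12.6% in the other members. These 3 were singled out with their values known. Over all members, 8 of 38 genes in repeated sequence were bound (21.1%) against 152 of 298 others (51.0%). The part of read mapping in this was not tested.

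The letters of the promoter inside the gene were present in nearly all members, bound or not. The B box core letters GTTCNANNC, searched on the gene's strand, were in 319 of 336 members (94.9%), against 1.19% of consecutive 72 bp windows of the autosomes outside tRNA genes, read on the plus strand. Of the 319, 154 were bound, and of the 17 without the letters, 6. A run of 4 T began within 30 bp past the gene in 332 members (98.8%), against 36.3% of 30 bp windows, and 159 of these 332 were bound. The 50 bp upstream held a median of 54% A or T at bound genes and 57% at unbound ones. Of 62 genes with another tRNA gene within 500 bp 34 were bound, and of 274 alone 126. No difference in these features was tested.

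Short words like those read by CUT homeodomains occurred at few of the summits, and their share in sequence away from summits was not measured. Within 50 bp of the 147 summits at autosomal tRNA genes, ATCGAT occurred at 2 (1.36%, exact interval 0.165 to 4.83%) and ATCAAT at 5 (3.40%, 1.11 to 7.76%), each searched on both strands. At the 672 other autosomal summits they occurred at 23 (3.42%, 2.18 to 5.09%) and 36 (5.36%, 3.78 to 7.34%). The intervals overlap for each word. Few of the summits belonged to another class of start: 1 bound gene had its summit near an snoRNA or snRNA gene, and 9 had it within 250 bp of the start of a protein-coding gene.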

How the data were processed

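The deposited peak lists of 2 libraries, labelled biological replicates 1 and 2 of 1 group, were used (fragments of 200 to 800 bp, per the labels). Each peak's signal is the authors' value on a scale not stated, and the deposited ranked series file also holds the −log10 of the global IDR. The larger and the conservative series lists were made from both replicates, and each replicate had a list of its own, per the deposited descriptions. The sources used here do not give the aligner, peak caller or depth. Signals of different lists were not normalised to each other, so ratios between replicates describe those lists. The conservative ranked file was not used here.

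Genes came from Ensembl release 115 of WBcel235, isotypes and sequences from RefSeq, and all 336 members matched by identifier. An anticodon was assigned where the anticodon arm could be folded from the sequence. Each of 4 class comparisons used Fisher's exact test (two-sided), which takes genes as independent. The p-values were adjusted by Benjamini and Hochberg's method with a threshold of 0.05. The code was first tested on simulated data. Shares have exact (Clopper-Pearson) 95% intervals for counting error only. Copies were identical over the annotated gene among all 612 nuclear tRNA genes. Alternatives changed the distance, the list, the merging of genes within 500 bp and the class limits. Python 3.11.15, NumPy 2.4.6, pandas 2.3.3, SciPy 1.17.1 and Biopython 1.88 were used.

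Named genes were the 10 bound members with the highest signal, 1 gene a peak, the highest of each isotype, the 3 lowest bound and the 3 unbound with the highest candidate signal, and further genes were picked with their values known. The members, lists and tests were chosen with earlier results of these data known.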

Additional observations from a re-analysis of the deposited data

How the results depend on the processing

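The number bound moved with the stringency of the list: 102 with the 500 strongest peaks of the larger list, and 55 to 100 with 1 replicate's own list alone. It was 152 within 100 bp, 165 within 500 bp, and 155 with the conservative list or with peaks that overlap the gene. With neighbours within 500 bp merged it was 145 of 305 loci, and with a −log10 IDR of at least 1.3 it was 195 genes. The share over all autosomal genes was counted only within 250 bp, for the larger, conservative and replicates' own lists. The other counts thus have no such share beside them. The odds ratio of shared against own sequence kept its direction in all 11 alternatives and its call in 5. It was past the threshold no longer at 1.90 (100 bp), 1.75 (500 strongest peaks), 1.84 to 1.93 (1 replicate's list alone), 1.82 (genes with GTTCNANNC alone) and 1.79 (genes with a series candidate alone), the last 2 chosen after seeing the data. These settings hold fewer bound genes or fewer genes. So does the setting with genes of at most 25% repeated words alone, also chosen after seeing the data. There the odds ratio kept its call at 2.05. Arm against centre, never past the threshold, turned to 1.23 without replicate 1 and was 0.828 without replicate 2. Autosomes against X turned to 1.07 with the 500 strongest peaks, ran from 0.787 to 0.876 with 1 replicate's list alone, and was 0.662 with neighbours merged (Fisher's exact adjusted p = 0.0501). Intron against intergenic ran from 0.774 to 0.839 with 1 replicate's list and kept its direction in 12 alternatives. The causes were not tested. Identity over the gene and 50 bp on each side gave no value, since no autosomal gene met it. No paired analysis was possible because there was 1 group. Depth is unknown, so no limit could be set on a single gene without a peak.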

Other observations

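Some groups of identical tRNA genes were bound at different shares on the autosomes and on X. The tRNA-Asn genes with anticodon GTT had 3 of 13 autosomal copies bound and 5 of 5 on X. The tRNA-Ala genes with anticodon TGC had 0 of 5 (though the autosomal Y38E10A.t1 was in the conservative list) and 3 of 3. The reverse order was seen for tRNA-Gly (TCC), with 12 of 18 autosomal and 4 of 11 X-linked copies, and tRNA-Pro (TGG), with 6 of 11 and 4 of 13. In both of the latter groups some autosomal copies shared a peak with a neighbouring copy, so not all are separate calls. These groups were picked after their values were seen, the differences were not tested, and over all tRNA genes the comparison of autosomes and X did not pass the test.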
